A study of Mus musculus with 9 samples.

Results

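Mouse gene names that end in os mark transcripts annotated on the opposite strand of a named partner gene, so that Dnm3os lies opposite Dnm3 and Egfros opposite Egfr. Names with this ending, with or without digits after it, were collected from the counted features wherever the name without the ending was itself a feature. There were 325 names with the ending, of which 299 had a partner. The names beginning with Hox, Hand2os1 and Prss23os were left out (6 names), which left 293. Those with at least 30 counts over all libraries were kept, which gave 90 opposite-strand features of 55228 features in all, opposite 81 partner genes. Of the other 203, 113 had 0 counts and 90 had 1 to 29. Just outside the limit lay Sardhos with 29 counts and Nr6a1os with 28, and the lowest total inside it was 30.

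RNA came from the uterus of C57BL female mice of wild-type genotype, 8 weeks old, collected on day 7, with 3 mice in each of 3 groups and 1 library per mouse. In the sham group the animals had a sham operation. Injury was mechanical, by 10 strokes of a turning needle of 27 gauge inside the uterus, and this group then got 50 μL of PBS. The CRC group had the same damage followed by 50 μL with 1000000 wild-type CRCs, endometrial epithelial cells kept in culture by conditional reprogramming on irradiated 3T3 cells. The whole uterus was sequenced, so fewer cells of a type and less RNA per cell cannot be told apart.

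Opposite-strand transcripts are a varied class. Some are processed into small RNAs, some act on the transcription of the gene across from them, and for most no function is known. Dnm3os, for example, is the precursor of miR-199a and miR-214 and is made in mesenchymal tissue.

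Counts on features were low, although each library held between 34046496 and 39204442 records. Sham libraries held 325384, 317754 and 327883 counts, injury libraries 290684, 280886 and 282937, and CRC libraries 288619, 289964 and 290833. The 90 opposite-strand features took a share of 0.916%, 0.873% and 0.791% in the sham libraries, of 0.966%, 1.02% and 0.991% after injury and of 1.07%, 0.992% and 1.08% with CRCs. The mean share was 0.86% ± 0.0634 in sham (SD, n = 3), 0.992% ± 0.0265 in injury and 1.05% ± 0.0486 in CRC. On these raw sizes no injury or CRC library lay below a sham library. On the scaled library sizes (TMM) behind all CPM values the order was lost, at 1.03%, 1.10% and 0.993% in sham, 1.04%, 1.08% and 1.05% after injury and 1.01%, 0.946% and 1.02% in CRC, where sham overlapped both other groups. Sham replicate 1 stood apart. Its counts gave a chi-square of 14.1 and 11.9 per degree of freedom against the other sham libraries, where all other pairs within a group were at 4.16 or less.

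The strand setting used in counting is not given in the sources used here. A count on an opposite-strand feature and a read of the partner gene's own RNA therefore cannot be told apart, and each value below is the count on the named feature. Marker genes of the cell types of the uterus were counted unevenly under their own names. The 7 smooth muscle markers held 936 counts, of which Myh11 had 459, and the 7 stroma markers held 270. The 6 epithelial markers held 20 counts over all libraries, with Cdh1 and Foxa2 at 0, and the 4 endothelial markers held 48. Of the 5 immune markers Ptprc, Adgre1 and Lyz2 were at 0 and Csf1r held 496 of 498 counts. The 5 uterine markers held 831 counts, of which Pgr, the progesterone receptor, had 619.

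The 90 were chosen by their own counts and the partners were not, so the choice in part fixes how they compare, and the values here are a description. In 84 of 90 cases the opposite-strand feature had the higher total. Over all 293 names with no minimum count it was higher in 133 cases, the partner in 110, and both had 0 counts in 50. Among the 90, for 21 features the partner had 0 counts in every library, where a count of 0 allows up to 3 counts. Totals of the opposite-strand features ran from 30 to 2481 with a median of 141, while the median over the 81 partner genes was 9 and 62 of them had under 30. Altogether the opposite-strand features held 25937 counts and the partners 10925. Of the latter Mkrn2 alone held 7686, and without it the partners held 3239. The partner had the higher total in 6 cases, among them those of Mccc1os, Rsf1os2, Runx2os1, Runx2os2 and Sorbs2os, which were named after their values were seen. Per kilobase of exon, the median level was 29.3 CPM (counts divided by the scaled library size, times 1000000) for the 87 opposite-strand features with an annotated length and 0.362 CPM for their partners. The opposite-strand feature was higher per kilobase in 84 of 87 cases, again among features chosen for their counts.

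**Figure D1:**
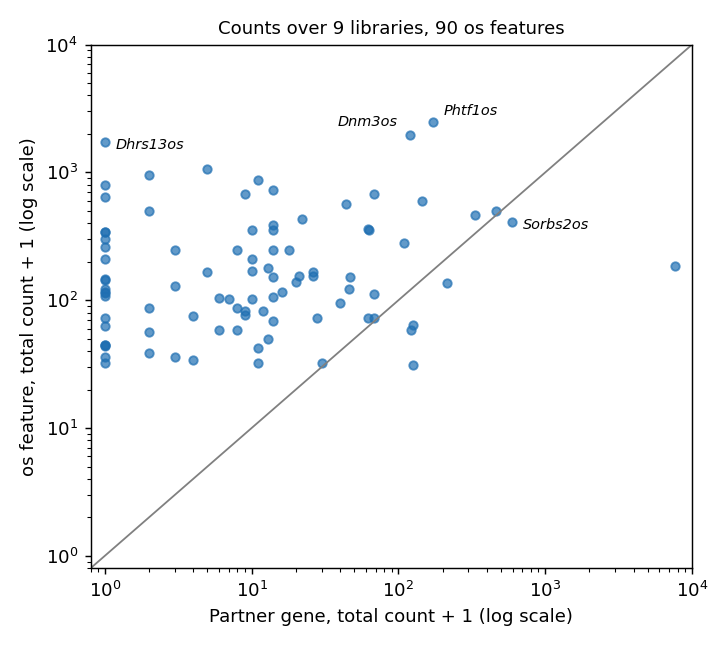
Total count over the 9 libraries of each of the 90 opposite-strand features (vertical axis) against that of its partner gene (horizontal axis), both plus 1 on log scales, with a line of equal counts. Above the line lie 84 features, which were chosen for a total of at least 30 while partners had no minimum, and 21 have a partner at 0.

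A few features carried much of the signal. The 10 with the largest totals held 46.2% of the counts, and were Phtf1os, Dnm3os, Dhrs13os, Egfros, Ube4bos1, Zmiz1os1, Rbfaos, Lef1os1, Mecomos and Pitpnm2os2. Per kilobase, among the 87 features with an annotated length, Dhrs13os was the highest at 288 CPM, followed by Phtf1os at 243 CPM. Rbfaos and Lef1os1 had no annotated length here. Phtf1os, which starts next to Phtf1 (a gene of a putative homeodomain protein) on chromosome 3 from 103964536 to 103968581 of GRCm38, measured 959 ± 35.1 CPM in sham, 963 ± 90.9 in injury and 1024 ± 174 in CRC (SD, n = 3 each). Ube4bos1 lies opposite Ube4b, a ubiquitin chain ligase, and measured 496, 337 and 344 CPM in sham, 393, 342 and 345 after injury and 385, 362 and 392 in CRC. Mecomos, opposite the zinc finger factor gene Mecom, measured 268 ± 52.2, 273 ± 56.6 and 272 ± 56.9 CPM. These 3 were not called in any comparison, and their groups overlapped in each.

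By their place in the GENCODE M21 annotation of GRCm38, 87 features could be compared with their partners, and 87 lay on the opposite strand. Antisense was the annotated type of 74. Oip5os1 and Rbfaos were placed by RefSeq on GRCm38.p6, and Lef1os1 was not placed here. The feature lay inside the partner gene in 52 cases, overlapped it in part in 30, and did not overlap its body in 5. Of the 30, 9 started within 1000 bp of the partner's start, as did 1 of the 5. Exon bases were shared with the partner by 60 features, with a median of 286.5 bp, while the other 27 shared none. The 60 had a median total of 125.5 and the 27 a median of 177. No annotated exon of any gene lay across from 25 features, which held 7480 counts or 28.8% of the counts on opposite-strand features. Whether reads from introns of a partner were among them was not tested.

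Whether needle injury alone altered these features was asked first. No opposite-strand feature passed the test between injury and sham, 0 of the 70 that passed the filter on low counts, where 0.430% of all 3722 features tested were called. The test was edgeR's quasi-likelihood test on 3 libraries per group, with adjusted p-values by Benjamini-Hochberg over all features and a threshold of 0.05. With no adjustment, 10 of the 70 had a p-value under 0.05, as did 468 of all 3722 features. DESeq2's Wald test called 0 as well, beside 24 of all features, but gave an adjusted p-value for only 10 of them. Of the 70, 13 passed the filter only through the group where they were highest, among them Chn1os3 and Igf1os. The groups did not overlap for 10 features, 14.3% of those tested, where 15.7% of all features tested had no overlap. The median log2 fold change of the tested features was -3.28e-05, and -0.01 over all features. The count of 0 depended on sham replicate 1, without which Fbxl12os, Hectd2os, Rab10os and Sorbs2os were called, 4 in all, each higher after injury and named after its values were seen. These were 4 of 76 tested (5.26%), in a fit that called 154 of 4140 features (3.72%).

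Among the 10 without overlap, Dnm3os and Egfros had the largest totals. Egfros lies in introns of Egfr, the epidermal growth factor receptor gene, and measured 270.7, 285 and 344 CPM in sham and 457, 470.3 and 439 in injury. All injury libraries were above all sham libraries, with a log2 fold change of 0.60 (SE 0.20, edgeR adjusted p = 0.175), which did not pass. Igf1os, opposite the growth factor gene Igf1, was below sham in each injury library, at -0.99 on the log2 scale (SE 0.48, edgeR adjusted p = 0.382), also without passing.

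Transplantation of CRCs after injury was then compared with sham. Of the 70 opposite-strand features tested, 15 were called (21.4%), beside 20.0% of all features tested, a share near the background. Lef1os1, Egfros and Mypopos rose, 3 of the 70, beside 298 of all 3722 features called higher (8.01%). The other 12 calls, out of the 70 tested, were lower, beside 447 of all 3722 features called lower (12.0%). They were Arhgap27os2, Arhgap27os3, Chn1os1, Chn1os3, Dhrs13os, Dnm3os, Igf1os, Lrp8os2, Plxna4os2, Ppp2r2cos, Rbfaos and Zmiz1os1. Of the 12, Chn1os3 and Igf1os had entered the test only through sham, where they are high, so their calls support nothing. The groups did not overlap for 29 features (41.4%), where 35.5% of all features tested had no overlap. The median log2 fold change was -0.08 over the tested features and 0.03 over all features. With library sizes that include the records outside features, a scaling chosen after seeing the data, the median over all features moved up by 0.29 on the log2 scale, and the calls came to 18 (25.7%), of which 9 were higher and 9 lower, beside 924 of 3722 features (24.8%), of which 643 were higher. All 15 kept their direction under it, while Dhrs13os, Plxna4os2 and Rbfaos were no longer called. Without sham replicate 1, 19 of 76 were called (25.0%), beside 21.6% of all features in that fit. Of the 15 called, 7 were among the 21 tested features that share no exon bases with the partner and 6 among the 46 that do. The partner had under 30 counts for 12 of the 15, and for 68 of the 90.

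Lef1os1 rose most. Its partner Lef1 encodes a DNA-binding factor of the Wnt pathway that acts with β-catenin. Lef1os1 measured 135, 103 and 103 CPM in the sham libraries, 100.2, 154 and 203 after injury and 589.9, 509.6 and 591 in CRC. The CRC libraries lay above all others, while sham and injury overlapped. Against sham it rose by 2.30 on the log2 scale (SE 0.25, edgeR adjusted p = 6.51e-08), and it passed under all 18 alternatives, with log2 fold changes from 2.20 to 2.59. Lef1 itself held 6 counts in 1 sham library and at most 5 in any other, so its own level could not be compared.

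Mypopos was called higher and Zmiz1os1 lower. Mypopos lies opposite Mypop, which encodes a Myb-related protein that binds profilin, on the minus strand of chromosome 7 from 18993234 to 19001222. It measured 163, 218 and 153 CPM in sham, 234, 252 and 214 after injury and 326, 249.9 and 313 in CRC. The CRC libraries were above the sham libraries, and the log2 fold change was 0.74 (SE 0.24, edgeR adjusted p = 0.0279). It was not called in 6 of 18 alternatives, which were those without sham replicate 1 or 3 or CRC replicate 1 or 3, with no filter on low counts and with only the compared groups fitted, where its edgeR adjusted p lay between 0.0504 and 0.127. Zmiz1os1, opposite the transcriptional coactivator gene Zmiz1 on chromosome 14 from 25257523 to 25461128, measured 344, 689 and 475 CPM in sham, 360.0, 369 and 379 after injury and 244, 125 and 232 in CRC. Its 3 CRC libraries were the lowest, with a log2 fold change of -1.32 against sham (SE 0.25, edgeR adjusted p = 2.29e-04), and it passed under all 18 alternatives.

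Egfros was called higher. It measured 577, 457 and 434 CPM in the CRC libraries, all above the sham values given earlier, with a log2 fold change of 0.71 (SE 0.20, edgeR adjusted p = 0.00967). Without CRC replicate 1 its edgeR adjusted p was 0.0835, the highest of 18 alternatives, from 4.90e-04. Lrp8os2 lies in introns of Lrp8, a receptor of reelin and apolipoprotein E, on chromosome 4 from 107806033 to 107823022. It measured 55.5, 162 and 115 CPM in sham, 145, 52.7 and 52.6 after injury and 22.8, 3.29 and 6.53 in CRC. CRC libraries were below all others, from 7, 1 and 2 counts, and the log2 fold change of -3.29 against sham (SE 0.60, edgeR adjusted p = 1.43e-04) was the largest decrease among the 70 tested. It ran from -4.35 without CRC replicate 1 to -2.86 without CRC replicate 2. Lrp8 had 0 counts in sham, 0, 6 and 4 after injury and 10, 2 and 3 in CRC. Against 3 counts over the sham group, Lrp8 was at least 3.33-fold higher in injury and at least 4.37-fold higher in CRC. These limits take the 10 counts of injury and the 15 of CRC as they stand, without their counting error. Injury replicate 1 was itself at 0. The limit for CRC leans on CRC replicate 1, which held 10 of the 15 counts.

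The Igf1os feature held 23, 24 and 15 counts in sham, 7, 13 and 11 after injury alone, and 6, 6 and 5 with CRCs. The CRC libraries were below all others in CPM, and against sham Igf1os fell by 2.04 on the log2 scale (SE 0.51, edgeR adjusted p = 0.00459). It passed the filter only through the sham group, where it is high. Plxna4os2, in introns of the semaphorin receptor gene Plxna4, fell by 0.94 on the log2 scale (SE 0.30, edgeR adjusted p = 0.0266). It was not called with sham replicate 3 or any 1 of the CRC replicates left out, with no filter on low counts or with library sizes that include all records, where its edgeR adjusted p lay between 0.0609 and 0.122.

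Among the 90, 9 partner genes had 2 features each. For Arhgap27 and Chn1 all 4 were called lower, among them Chn1os3, whose calls support nothing. For the other partners with 2 features, only Plxna4os2 was called. Arhgap27os3, on the plus strand of chromosome 11 from 103344753 to 103350124, lies in introns of the partner and measured 135, 356 and 145 CPM in sham, 200.4, 199 and 169 after injury and 22.8, 36.2 and 49.0 in CRC. Arhgap27os2, from 103355701 to 103361092, shares 1055 bp of exon with its partner and measured 108, 135 and 107 CPM in sham, 104, 41.4 and 71.3 after injury and 32.6, 13.2 and 13.1 in CRC. In each of the 2 all CRC libraries were below all others. Against sham each stood at -2.54 on the log2 scale, with an edgeR adjusted p of 1.38e-05 for Arhgap27os3 and of 1.73e-04 for Arhgap27os2.

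Chn1 encodes chimaerin and has the other pair. Chn1os1 measured 93.7, 71.3 and 111 CPM in sham, 55.7, 82.8 and 52.6 after injury and 26.1, 29.6 and 26.1 in CRC. Chn1os3 was lower throughout, at 38.2, 31.7 and 53.6 CPM in sham and 6.52, 9.86 and 3.26 in CRC. Against sham they stood at -1.74 (SE 0.44, edgeR adjusted p = 0.00459) and -2.57 (SE 0.77, edgeR adjusted p = 0.0161) on the log2 scale. Chn1os3 had only 2, 3 and 1 counts in the CRC libraries, and passed the filter only through the sham group. It was no longer called without sham replicate 3 or CRC replicate 1 or 3 or with no filter on low counts, where its edgeR adjusted p lay between 0.0523 and 0.0749. Arhgap27 and Chn1 themselves held at most 5 counts in any library and were below the filter.

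**Figure D2:**
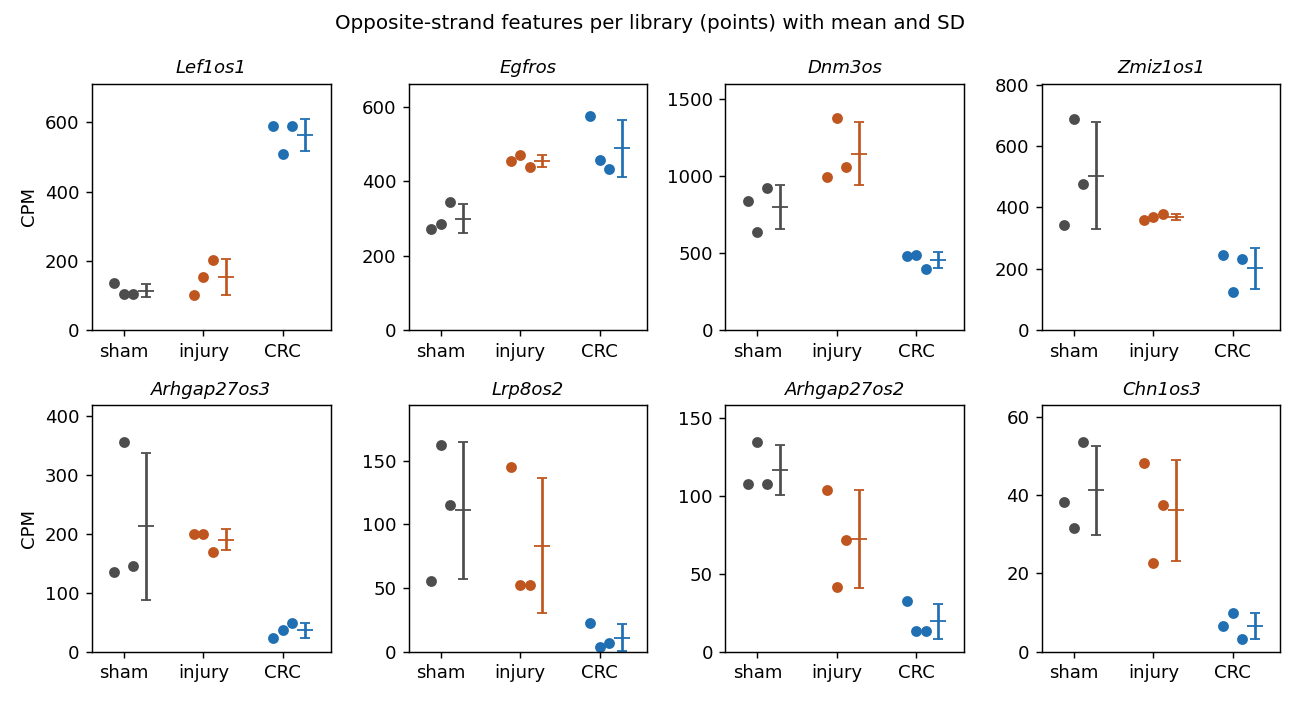
CPM of 8 opposite-strand features in each library (points, n = 3 per group), with the group mean and SD beside them. For Lef1os1 the 3 CRC libraries lie between 509.6 and 591 CPM and above all others, while for Dnm3os, Zmiz1os1, Arhgap27os3, Lrp8os2, Arhgap27os2 and Chn1os3 they are the lowest. These are the features called lower in CRC against both other groups, so the order follows from that choice. Chn1os3 passed the filter only through the sham group.

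The remaining calls were lower too. Ppp2r2cos, opposite a regulatory subunit gene of protein phosphatase 2A, measured 88.9 ± 37.3 CPM in sham and 25.1 ± 6.71 in CRC (SD, n = 3), and fell by 1.80 on the log2 scale (SE 0.51, edgeR adjusted p = 0.012). Without CRC replicate 2 or 3 it was not called, with an edgeR adjusted p of 0.0642 and 0.0527. Dhrs13os, opposite a dehydrogenase and reductase gene with 0 counts, fell by 0.51 on the log2 scale (edgeR adjusted p = 0.0339). Rbfaos, opposite the mitochondrial ribosome-binding factor gene Rbfa with 0 counts, fell by 0.62 (edgeR adjusted p = 0.0445). These were the weakest calls, lost in 10 and 12 of 18 alternatives. Dhrs13os was not called without sham replicate 2 or 3 or CRC replicate 2 or 3, with edgeR adjusted p between 0.0546 and 0.158. Rbfaos was not called without sham replicate 3, injury replicate 3 or any 1 of the CRC replicates, with edgeR adjusted p between 0.0504 and 0.227.

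Dnm3os was the feature with the second largest total. It lies inside an intron of Dnm3, a dynamin gene, on the plus strand of chromosome 1 from 162217623 to 162225550, with no exon on the other strand. It measured 833, 637 and 919 CPM in sham, 995, 1377 and 1055 after injury and 482, 483 and 395 in CRC. The 3 groups did not overlap, with injury highest and CRC lowest. On the log2 scale it fell by 0.81 in CRC against sham (SE 0.18, edgeR adjusted p = 0.00146) and stood at -1.33 in CRC against injury (SE 0.18, edgeR adjusted p = 3.37e-06). The difference of injury from sham was 0.52 (SE 0.18, edgeR adjusted p = 0.185), which did not pass.

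The third comparison set CRCs given after injury against injury alone. Of the 70 features 7 were called (10.0%), beside 12.9% of all features tested. Lef1os1 rose, 1 of the 70, beside 190 of all 3722 features called higher (5.10%). Beside 291 of all 3722 features called lower (7.82%), 6 of the 70 fell. These were Dnm3os, Arhgap27os2, Arhgap27os3, Lrp8os2, Zmiz1os1 and Chn1os3, the last of which had entered the test only through sham. The groups did not overlap for 22 features (31.4%), where 33.5% of all features had no overlap. The 7 had also been called against sham, and both comparisons share the CRC libraries. On the log2 scale Lef1os1 stood at 1.88 (SE 0.24, edgeR adjusted p = 1.68e-06), Lrp8os2 -2.89 (SE 0.61, edgeR adjusted p = 0.00123) and Arhgap27os3 -2.38 (SE 0.39, edgeR adjusted p = 5.46e-05). Over the alternatives Lrp8os2 ran from -3.97 to -2.25. With library sizes that include all records the calls came to 6 (8.57%), of which 2 were higher and 4 lower, beside 523 of 3722 features (14.1%), of which 334 were higher, and the median of all features moved up by 0.20. Chn1os3 and Zmiz1os1 were lost under it (edgeR adjusted p = 0.0571 and 0.0717). The count was 11 without sham replicate 2 (15.1%, beside 16.2% of all features) and 4 without CRC replicate 2 (5.56%, beside 8.37%). Arhgap27os2 was lost without injury replicate 1 and without CRC replicate 2 or 3 (edgeR adjusted p from 0.0571 to 0.0907), and Zmiz1os1 without injury replicate 3 or CRC replicate 2 (edgeR adjusted p = 0.0548 and 0.153). Chn1os3 was also lost with no filter on low counts, with the replicate block, and without sham replicate 3, injury replicate 1 or 3 or any 1 of the CRC replicates (edgeR adjusted p from 0.0589 to 0.176). The median log2 fold change was -0.05 over the tested features and 0.01 over all features.

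Partners of the opposite-strand features gave few values to set beside them. Only 11 of the 81 partner genes passed the filter, of which 0 were called between injury and sham and 1 in each comparison with CRC. That was Sorbs2, which encodes an adaptor of actin and cell adhesion sites. It held 59.0, 99.0 and 99.5 CPM in sham, 74.2, 150.5 and 165 after injury and 439.9, 434 and 496 in CRC, and against sham it rose by 2.41 on the log2 scale (SE 0.29, edgeR adjusted p = 2.78e-07). Sorbs2os, described after its values were seen, stood at 0.87 (SE 0.32, edgeR adjusted p = 0.0534) and was not called. It was called higher with upper quartile scaling, with at least 10 counts in every library, without sham replicate 1 and with library sizes that include all records, so this call turned on the setting. Among partners that did not pass the filter, Sox5, a factor of the SoxD family, had 0 counts in every CRC library, against 8, 15 and 7 in sham and 7, 17 and 7 in injury. Against the 3 counts that a group total of 0 allows, Sox5 was at least 11.4-fold lower in CRC than in sham and at least 11.8-fold lower than in injury. These limits take the sham and injury counts as they stand.

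Whether a feature and its partner moved unequally was tested on the ratio of their counts within each library. The fit held 903 opposite-strand pairs with at least 30 counts on each feature, of which 22 were opposite-strand features with their partners. Between injury and sham 0 of the 22 were called, beside 0% of all pairs, with 2 at an unadjusted p-value under 0.05. In CRC against sham 2 were called, beside 10.3% of all pairs, and in CRC against injury 2, beside 5.54% of all pairs. Sox5os1 with Sox5 was called in both comparisons, with an edgeR adjusted p of 0.00219 and 0.00368. The Sox5os1 feature itself overlapped between groups, with CRC libraries at 49, 21 and 55 counts, sham at 37, 42 and 30, and injury at 35, 51 and 40. With Sox5 at 0 in CRC, the ratio of Sox5os1 to Sox5 was at least 11.5-fold higher there than in sham and at least 10.3-fold higher than in injury, all other counts taken as they stand. Sox5os1 shares 1330 bp of exon with Sox5. Sox5os3, also opposite Sox5 and named after its values were seen, held 5, 2 and 4 counts in CRC, 14, 7 and 9 in sham and 6, 10 and 15 after injury. With the same 0 counts of Sox5, its limit was 3.67-fold in both comparisons. Its pair was not called (edgeR adjusted p = 0.0688 and 0.0935).

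Mypopos with Mypop was called in CRC against sham. The counts of Mypop were 9, 17 and 11 in CRC, 22, 17 and 23 in sham, and 14, 14 and 16 after injury. Mypopos took 69.6% of the pair's counts in sham, 81.0% in injury and 88.0% in CRC, a log2 ratio change of 1.69 against sham (SE 0.52, edgeR adjusted p = 0.0353). Dnm3os with Dnm3 was called in CRC against injury, where the log2 ratio changed by -1.94 (SE 0.52, edgeR adjusted p = 0.0284). Dnm3os took 95.2% of the pair in sham, 96.5% in injury and 88.5% in CRC. Without sham replicate 1 or 3 or CRC replicate 1 or 3 the Mypopos pair was not called. The number of pairs called against sham was then 1 without sham replicate 3, CRC replicate 1 or CRC replicate 3, and it was 4 without sham replicate 2. Against injury it was 4 without sham replicate 2, and 1, with the Dnm3os pair lost, without injury replicate 1 or 3 or any 1 of the CRC replicates. The pair of Sox5os1 and Sox5 was called in both comparisons with every single library left out.

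The mature miRNAs encoded inside Dnm3os are shown because the feature is their precursor. The hairpins lie at chr1:162217814-162217923 (Mir199a-2) and chr1:162223368-162223477 (Mir214) on the plus strand of GRCm38.p6, in the RefSeq sequences used here. Capitals mark the seed, bases 2 to 8, and no seed is shared among the 4.
miR-199a-5p: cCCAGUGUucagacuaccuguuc
miR-199a-3p: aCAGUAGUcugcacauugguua
miR-214-5p: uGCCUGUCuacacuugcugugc
miR-214-3p: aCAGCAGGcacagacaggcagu
The features Mir199a-2 and Mir214 had 0 counts in all 9 libraries, and small RNAs were not measured.

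**Figure D3:**
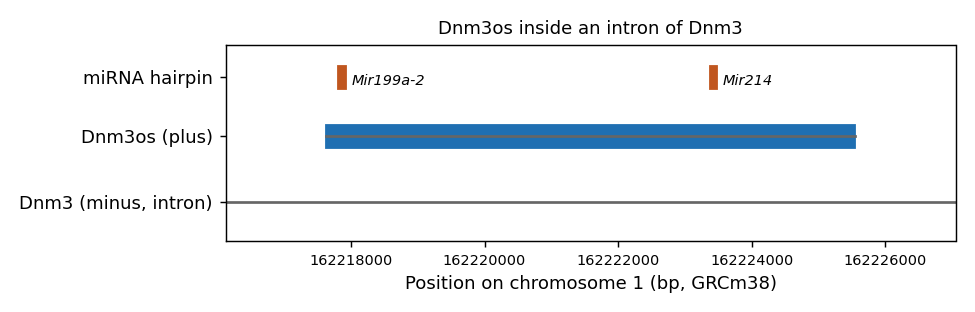
Map of chromosome 1 around Dnm3os (blue, plus strand, 162217623 to 162225550 on GRCm38) with the Mir199a-2 and Mir214 hairpins (orange) and the intron of Dnm3 (line, minus strand) that holds them. Exons of Dnm3 nearest to it lie 82871 bp to the left and 6104 bp to the right.

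Promoter windows, from 250 bases before to 50 after the start, are shown for 4 of the 6 features called lower in CRC against both other groups, of which Arhgap27os2, Chn1os3 and Zmiz1os1 were lost against injury in the alternatives given above. For Zmiz1os1 5 windows are listed and for Arhgap27os2 0 were found, so these are not printed. Of the 90 features 56 had a window in the RefSeq table of GRCm38.p6. The windows were searched on both strands for the TATA box TATAAA, for the CCAAT box, for the GC box GGGCGG, for the E-box CATCTG and for the CArG box by its name. Capitals mark what was found.
Dnm3os, chr1:162217373-162217672, plus strand: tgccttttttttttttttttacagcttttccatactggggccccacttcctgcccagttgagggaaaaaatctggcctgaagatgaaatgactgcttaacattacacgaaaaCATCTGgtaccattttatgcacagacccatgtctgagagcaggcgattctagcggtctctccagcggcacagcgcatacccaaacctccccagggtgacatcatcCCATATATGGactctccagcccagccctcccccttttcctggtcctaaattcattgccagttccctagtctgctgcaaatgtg
Lrp8os2, chr4:107822973-107823272, minus strand: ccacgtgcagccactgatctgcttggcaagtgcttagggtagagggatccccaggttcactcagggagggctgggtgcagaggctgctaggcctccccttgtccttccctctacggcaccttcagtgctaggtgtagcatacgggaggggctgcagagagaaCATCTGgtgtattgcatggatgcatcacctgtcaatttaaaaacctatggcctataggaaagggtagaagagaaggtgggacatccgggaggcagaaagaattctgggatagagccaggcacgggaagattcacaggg
Arhgap27os3, chr11:103344503-103344802, plus strand: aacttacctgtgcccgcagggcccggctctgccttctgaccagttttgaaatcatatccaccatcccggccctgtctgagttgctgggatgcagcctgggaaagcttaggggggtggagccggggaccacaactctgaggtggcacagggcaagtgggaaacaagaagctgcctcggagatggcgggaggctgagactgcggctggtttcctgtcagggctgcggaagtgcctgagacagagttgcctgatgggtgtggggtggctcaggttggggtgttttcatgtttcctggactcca
Chn1os3, chr2:73596276-73596575, plus strand: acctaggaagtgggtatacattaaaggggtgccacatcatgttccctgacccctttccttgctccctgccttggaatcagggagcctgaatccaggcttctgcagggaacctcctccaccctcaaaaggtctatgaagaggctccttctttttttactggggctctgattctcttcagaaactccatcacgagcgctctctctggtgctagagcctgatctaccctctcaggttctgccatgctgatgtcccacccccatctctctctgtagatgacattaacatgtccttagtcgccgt
The motifs were chosen after the windows had been read. The E-box CATCTG, found in the printed windows of Dnm3os and Lrp8os2, was present in 17.2% of the 32851 windows in the table, where a gene may have several, and in 13 of 56 when the first window of each opposite-strand feature was taken. The CArG box, the binding motif of serum response factor, was present in 1.63% of all windows and in 1 of the 56, that of Dnm3os. The TATA box, the CCAAT box and the GC box, in 13.6%, 37.4% and 35.7% of all windows, had no match in the 4 windows printed. The windows of Zmiz1os1, which are not printed, held all 3 of these and the E-box, over several windows. A match is a description of the sequence.

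The other 20 of the 90 features were below the low-count filter, with totals between 30 and 76. With the filter set at 30 counts in all, Bach2os, Hopxos and Runx2os2 were called higher and Parvaos lower in CRC against sham, and 0 of the 20 in the other comparisons. Outside the group where each was highest they held only 17, 11, 15 and 28 counts, so they entered that fit only through this group and the calls support nothing. That fit called 17 of the 90 in CRC against sham (18.9%), beside 769 of 5726 features (13.4%), of which 318 were higher. These 4 were named after their values were seen. Among partners outside the filter, Sox5 was then called lower in both comparisons with CRC. Igf1, with 40 counts in sham, 18 in injury and 9 in CRC, entered only through the sham group.

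Other features with an opposite-strand exon are many. Outside the 90, 2134 tested features had such an exon, of which 23.4% were called in CRC against sham, and 1439 had none, of which 15.1% were called. The difference between these shares was not tested. Among the opposite-strand features left out by name, Hoxd3os1, named after its values were seen, was higher in CRC than in sham and than in injury, and 1 of the 3 tested Hox features was called in each. The summed counts of the smooth muscle and of the stroma markers were lower in every injury and CRC library than in any sham library, but not those of each marker. The 7 smooth muscle markers, led by Myh11, summed to 79, 76 and 102 counts in CRC, 84, 94 and 90 after injury alone and 123, 151 and 137 after sham operation. The 7 stroma markers, led by Col3a1, summed to 35, 56 and 54 in sham, 24, 25 and 28 after injury and 14, 17 and 17 in CRC. Summed over a group, Cnn1 held 10, 19 and 23 counts in sham, injury and CRC, Lmod1 39, 41 and 49, Smtn 12, 11 and 11, and Pdgfra 3, 8 and 8. The 5 immune markers, nearly all Csf1r, summed to 66, 63 and 79 in sham, 63, 49 and 62 after injury and 45, 36 and 35 in CRC, where the CRC libraries were below all others. The 6 epithelial markers, led by Epcam, summed to 7, 7 and 2 in sham, 0, 1 and 2 after injury and 0, 0 and 1 in CRC. The 4 endothelial markers, led by Pecam1, summed to 17, 0 and 7, to 4, 7 and 5 and to 2, 5 and 1. The 5 uterine markers, led by Pgr, summed to 83, 73 and 133, to 77, 74 and 59 and to 131, 95 and 106, in the same order of groups. The part of any of these lists in the called opposite-strand features was not tested.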

How the data were processed

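Total RNA of the uterus was depleted of ribosomal RNA with Ribo-Zero Gold and sequenced in pairs. The authors aligned the reads with HISAT2 2.1.0 and used StringTie 2.1.1, per the submitters' processing notes, and deposited a count per feature for each library without normalization. The count files carry the name and record layout of HTSeq, whose version and strand setting are not given in the sources used here. Features held 0.776% to 0.898% of the records, and the rest were listed outside features and were left out of library sizes. Positions came from GENCODE M21, a release other than the one the study names, with overlaps by bedtools 2.31.1.

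Counts were fitted in R 4.3.3 with edgeR 4.0.16 (filterByExpr, TMM, robust quasi-likelihood fit of all 9 libraries, no covariate), with Benjamini-Hochberg adjustment and a threshold of 0.05. The strand ratio used 2 columns per library with library as a block. CPM used TMM-scaled sizes. Intervals and limits from counts do not cover the spread between mice. The fold limits allow for counting error only in the group at 0 and take all other counts as they stand. Libraries of a group differed by more than sampling noise (chi-square per degree of freedom 2.25 to 14.1). Scripts were tested on simulated data. Named features were those called, the 10 with the largest totals, those with a called pair, and their partners, and others were named after their values were seen. Members and lists were chosen with earlier results of these data known. Alternatives used DESeq2 1.42.0, other scalings, filters, groups, thresholds, a replicate block and leaving out each replicate. Some items are not reported here.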

Additional observations from a re-analysis of the deposited data

How the results depend on the processing

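Of the 22 calls of an opposite-strand feature in a comparison, 12 held under every alternative that tested them and 0 changed direction. The 22 include the calls of Chn1os3 and Igf1os, which entered the test only through sham and support nothing. The call of Igf1os is among the 12. With at least 10 counts in every library, 36 features were tested. In CRC against sham 9 were called, 6 higher and 3 lower, beside 554 of 2039 features (27.2%), with Bcas3os1, Fbxl12os and Sorbs2os new. In CRC against injury 4 were called, 2 higher and 2 lower, beside 366 of 2039 (17.9%), with Anxa11os new. These names were picked after their values were seen, and 7 features called lower in CRC had fewer counts than that and left the test. An adjusted p-value under 0.01 gave 9 in CRC against sham (12.9%, beside 11.7% of all features). With 1 library left out the calls ran from 0 to 4 in injury against sham, from 10 to 19 in CRC against sham and from 4 to 11 in CRC against injury, while the share of all features called ran from 0.0724% to 3.72%, from 12.5% to 21.6% and from 7.98% to 16.2%. The called strand ratios ran from 0 to 0, from 1 to 4 and from 1 to 4, beside 44 to 118 and 12 to 99 of all 903 pairs in the comparisons with CRC, and with only the 22 pairs fitted there were 3 and 4 in the comparisons with CRC. With at least 90 counts on each feature, 471 pairs were fitted, 9 of them with opposite-strand features of the 90, of which 3 and 2 were called in the comparisons with CRC, beside 25.9% and 16.3% of the 471, and Sox5os1 with Sox5 was not among the 9. Beyond fewer libraries or pairs the cause was not tested. With replicate number as a block (replicate block) the calls were 0, 13 and 6 (18.6% and 8.57% in the comparisons with CRC), beside 0.134%, 18.3% and 11.4% of all features. The numbers share no stated animal or day. Deviations of same-numbered libraries correlated between -0.0964 and 0.0801, and those of libraries with different numbers between -0.0688 and 0.115. No pairing by number was seen, and a shared day or batch was not tested. Of 38 named values that were not called, 3 passed in an alternative and 15 changed sign in at least 1. Features with few counts, such as Lrp8os2 and Chn1os3 in CRC, are limited by the low number of records counted on features.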
